A study of Homo sapiens with 4 samples.

Results

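The 10 genes described here encode the clathrin coat (CLTC, CLTA and CLTB), the AP-2 adaptor (AP2A1, AP2A2, AP2B1, AP2M1 and AP2S1) and 2 proteins that act on PD-L1 after its synthesis, HIP1R and CMTM6. They were taken by name, and all 10 were found among the 19970 protein-coding genes of chromosomes 1 to 22 and X in a RefSeq table. The question was whether enriched regions of a PD-L1 ChIP-seq experiment lay at the genes that internalise and sort the protein. The cells were untreated and carried a wild-type genotype label. They came from a subclone of the established line MDA-MB-231, grown from a breast cancer of the triple-negative type. Chromatin was precipitated with an HA antibody in 2 biological replicates labelled PD-L1, and each replicate had an input library of the same cells without antibody. The labels do not say how an HA tag entered the cells, and no precipitation from untagged cells was analysed here, so the target's chromatin and chromatin recovered without it cannot be told apart.

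Clathrin coats form at the plasma membrane when AP-2 binds the sorting motifs of a cargo receptor and recruits clathrin triskelions, each built of heavy chains with bound light chains, and the coated pit is then pinched off as a vesicle. PD-L1, the ligand of the T-cell receptor PD-1, is cargo of such traffic. HIP1R, which ties the coat to actin, is known to steer PD-L1 to lysosomes, and CMTM6, a membrane protein with a MARVEL domain, is known to hold PD-L1 at the surface and in recycling endosomes.

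Each replicate is a deposited list of broad peaks, with 166548 peaks of replicate 1 and 93591 of replicate 2 on the chromosomes used. A gene's window was its RefSeq span plus 10 kb on each side. A shared region was the union of overlapping peaks (at least 1 bp) with at least 1 peak of each replicate, and there were 45771 of them. All 93591 names in the list of replicate 2, and none in that of replicate 1, carry "Merge". It is not known whether that list was called on replicate 2 alone. If it pools libraries, shared regions and overlaps between the lists are not agreement between independent replicates. The start and the far end of a gene were taken as the first and the last base of its span in the direction of transcription, and a peak counted as being at an end when it came within 1 kb of it. The gene body was the span more than 1 kb from both ends. Read depth is unknown, and with 1 group of 2 replicates there was no comparison of conditions and no test.

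The sequences at the starts of 5 genes are shown first, because these starts carried a shared region within 1 kb. Each run is the 300 bases of the RefSeq promoter table (GRCh38.p14, the build of the files), 250 before and 50 after the listed start, 5′ to 3′ on the gene's own strand. Capitals mark the bases that lay under a peak of both replicates.
CLTC (chr17:59619645-59619944, plus strand): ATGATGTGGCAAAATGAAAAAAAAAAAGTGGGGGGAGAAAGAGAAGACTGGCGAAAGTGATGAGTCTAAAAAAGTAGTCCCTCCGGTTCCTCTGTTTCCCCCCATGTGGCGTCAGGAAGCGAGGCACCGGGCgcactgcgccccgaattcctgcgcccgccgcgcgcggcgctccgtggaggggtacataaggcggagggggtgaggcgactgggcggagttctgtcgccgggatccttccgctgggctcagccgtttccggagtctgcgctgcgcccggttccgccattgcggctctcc
AP2S1 (chr19:46850265-46850564, minus strand): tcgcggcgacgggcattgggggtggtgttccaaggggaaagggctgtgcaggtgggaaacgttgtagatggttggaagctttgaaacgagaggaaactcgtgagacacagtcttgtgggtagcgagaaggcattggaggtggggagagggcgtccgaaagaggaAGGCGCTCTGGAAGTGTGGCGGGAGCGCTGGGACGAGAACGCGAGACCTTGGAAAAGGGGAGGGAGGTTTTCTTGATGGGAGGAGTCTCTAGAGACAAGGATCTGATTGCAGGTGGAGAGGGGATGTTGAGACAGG
AP2A1 (chr19:49766751-49767050, plus strand): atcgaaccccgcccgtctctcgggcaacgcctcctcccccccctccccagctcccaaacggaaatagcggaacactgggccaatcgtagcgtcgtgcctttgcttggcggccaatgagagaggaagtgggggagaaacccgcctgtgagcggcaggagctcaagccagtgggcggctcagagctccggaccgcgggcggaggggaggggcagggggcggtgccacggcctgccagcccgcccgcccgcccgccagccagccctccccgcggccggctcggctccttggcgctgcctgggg
AP2A2 (chr11:925620-925919, plus strand): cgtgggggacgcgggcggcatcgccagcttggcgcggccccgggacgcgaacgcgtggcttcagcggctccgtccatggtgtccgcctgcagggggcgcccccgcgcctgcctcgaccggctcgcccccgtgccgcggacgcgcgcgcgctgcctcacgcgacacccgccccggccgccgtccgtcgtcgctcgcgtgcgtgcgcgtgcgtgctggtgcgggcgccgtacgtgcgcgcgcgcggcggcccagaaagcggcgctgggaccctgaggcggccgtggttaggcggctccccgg
CMTM6 (chr3:32502803-32503102, minus strand): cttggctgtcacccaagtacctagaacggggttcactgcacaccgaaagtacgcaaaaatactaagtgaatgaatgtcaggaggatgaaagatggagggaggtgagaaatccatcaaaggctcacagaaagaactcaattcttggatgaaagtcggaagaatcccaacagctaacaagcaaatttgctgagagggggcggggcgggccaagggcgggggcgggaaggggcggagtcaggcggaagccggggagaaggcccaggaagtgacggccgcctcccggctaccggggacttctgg

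Peaks of both replicates covered the same bases of the promoter sequence at CLTC (132 of 300) and AP2S1 (136 of 300). The whole CMTM6 and AP2A1 sequences lay under a peak of replicate 1 and under none of replicate 2. The AP2A2 sequence lay under no peak, since its shared region ended upstream of it, at position −453 from the start. Sequence GC content over the 10 genes (first entry of each) ran between 51.7% at AP2B1 and HIP1R and 80.3% at AP2A2, beside a median of 62.3% over 22153 promoter entries of 15810 protein-coding genes. Of 10 short motifs searched on both strands, only GGGCGG, the GC box bound by SP1 family factors, and CCAAT, bound by NF-Y, were present. Counting the first entry of each gene, GGGCGG stood in 7 of the 10 (all but AP2B1, AP2S1 and HIP1R) and in 56.3% of all entries, and AP2A1 held 7 matches. CCAAT stood in 4 (CLTA, AP2A1, AP2S1 and HIP1R) and in 34.6% of all entries. The other 8 motifs had no match in the 10 sequences. Of all entries, 9.47% held TATAAA (the TATA box), 8.34% held CACGTG (the E-box of MYC and USF) and 3.08% held GTCACGTG, which contains it. The AP-1 site TGACTCA stood in 4.02%, the ETS site CCGGAAG in 12.8% and the NRF1 site GCGCATGCG in 2.36%. The YY1 site AAGATGGCG stood in 2.42% and the NF-κB site GGAATTTCC in 0.406%.

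**Figure D1:**
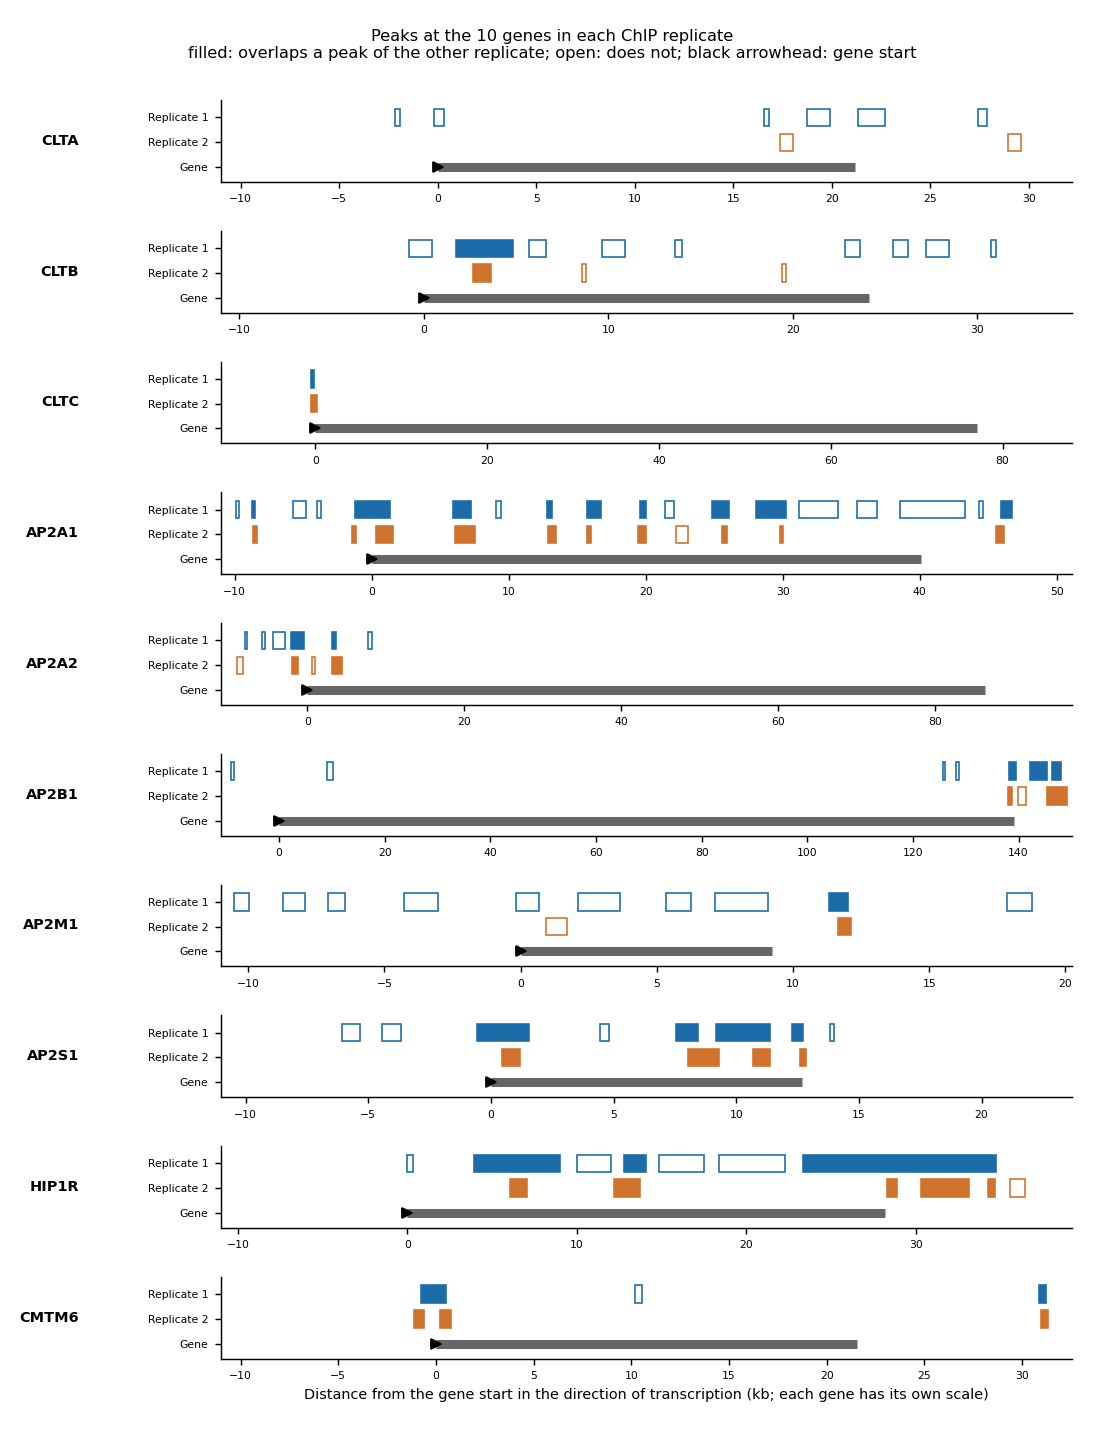
Peaks of both replicates along the 10 genes and their 10 kb flanks, with distance from the gene start in kb on each horizontal axis (narrow peaks are drawn at a minimum width). Filled bars overlap a peak of the other replicate and open bars do not. CLTC has 1 peak per replicate, at the start, while AP2A1 has 18 and 11 along its length.

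All 10 genes had a peak of replicate 1 in their windows and all 10 had a peak of replicate 2, where 83.2% and 74.5% of protein-coding genes did. A shared region was found in the windows of 9 genes (all but CLTA), against 59.5% of protein-coding genes. Among protein-coding genes of like length and local density the share was higher. For each gene, like genes were all others whose span was within 1.5 times its length and whose local density was within 1.5 times its own. Local density counts peaks or shared regions per Mb in the 1 Mb beyond each side of the window. Averaged over the 10 genes, 94.4% of like genes had a peak of replicate 1 in the window, 85% had a peak of replicate 2 and 74.4% had a shared region. The neighbourhoods of the 10 genes had a median of 32 shared regions per Mb, against 21.5 over all protein-coding genes, and what this density contributed to the presence of peaks was not tested beyond the like genes.

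Gene ends carried shared regions in 7 of the 10 genes, where 32.9% of all protein-coding genes and on average 42% of like genes did. The 7 were CLTC, AP2A1, AP2A2, AP2B1, AP2S1, HIP1R and CMTM6. The 3 others were both clathrin light chain genes, CLTA and CLTB, and the medium adaptor chain AP2M1. A shared region met the start in 5 genes (CLTC, AP2A1, AP2A2, AP2S1 and CMTM6), against 24.1% of the 15812 genes with a strand in the promoter table and 29.5% of like genes. It met the far end in 3 (AP2B1, AP2S1 and HIP1R), against 17.6% of genes and 22.1% of like genes. AP2S1 alone among the 10 had one at both ends. The gene body held a shared region, or part of one, in 6 genes (CLTB, AP2A1, AP2A2, AP2B1, AP2S1 and HIP1R), against 42.5% of genes and 59.2% of like genes. The count of 7 gene ends depended on what counted as a shared peak. It was 4 (CLTC, AP2A1, AP2S1 and CMTM6) where only peaks reaching 2 in −log10 q were kept, against 7.55% of all genes and 9.55% of like genes. It was 3 (AP2A1, AP2S1 and CMTM6) in the 50% of each list with the higher fold, against 7.66% and 9.94%. It was 1 (CLTC) where each peak had to cover 50% of the other, against 9.9% and 13.1%.

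Each replicate taken alone gave more gene ends and starts than the overlap did. A peak of replicate 1 was within 1 kb of either end in all 10 genes (68.8% of all genes, 83.4% of like genes) and a peak of replicate 2 in 8, all but CLTA and CLTB (37.1% and 43.6%). A peak of replicate 1 met the body in 9 genes, all but CLTC (65% of all genes, 83% of like genes), and a peak of replicate 2 in 8, all but CLTC and CMTM6 (54% and 70%). In replicate 1 there was a peak within 1 kb of the start in 9 genes (all but AP2B1), against 64.7% of genes with a strand and 77.5% of like genes. In replicate 2 there were 6 (CLTC, AP2A1, AP2A2, AP2M1, AP2S1 and CMTM6), against 26% of genes and 29.7% of like genes. All 6 starts of replicate 2 were among the 9 of replicate 1, where only AP2B1 could have fallen outside. Peaks of both lists, overlapping or not, were near the start of 22% of genes with a strand. These were 3481 of the 4109 genes with a replicate 2 peak there. At AP2M1 the peaks of the replicates missed each other by 249 bp. The far end had a peak of replicate 1 in 7 genes (36.5% of all genes, 46.7% of like genes) and of replicate 2 in 3 genes (18.7% and 22.5%).

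**Figure D2:**
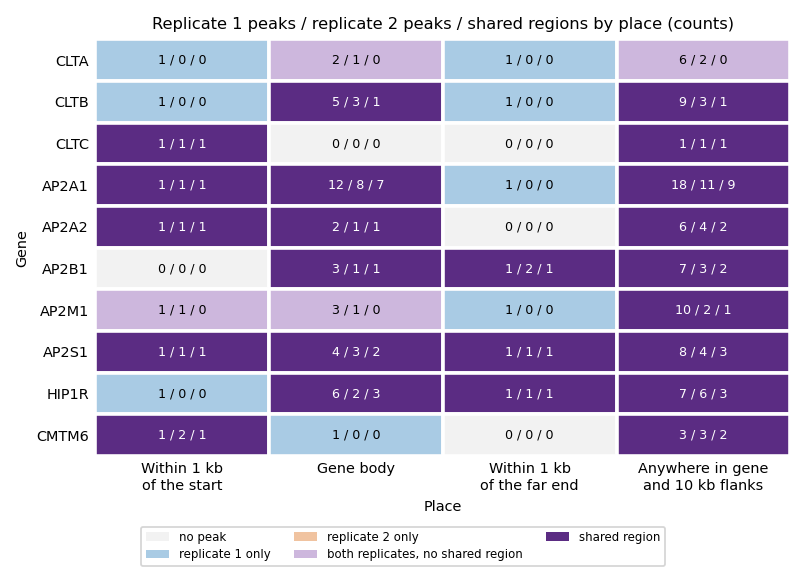
Numbers of replicate 1 peaks, replicate 2 peaks and shared regions (in this order in each cell) by place in the 10 genes, with colour for the kind of sharing (a peak that spans places is counted in each). Dark cells hold a shared region: 5 in the column of starts, 3 in that of far ends, 6 for gene bodies and 9 for whole windows.

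CLTC encodes the clathrin heavy chain, the leg of the triskelion (chr17:59619895-59696956, plus strand, 77.1 kb). Its window of 97.1 kb held a single peak in each list, both within 1 kb of the start. The replicate 1 peak, at positions −520 to −119, ended before the start, and the replicate 2 peak, at −552 to 220, spanned it. The shared region chr17:59619343-59620115 had a fold enrichment over the caller's background, as the authors' caller gave it, of 3.05 in replicate 1 and 2.15 in replicate 2, and a −log10 q of 2.15 and 2.02. It ranked above 27.4% of all shared regions by the mean of its fold ranks. The rest of the gene was free of peaks over 76.8 kb, or 99.7% of its length. Like genes had a median of 63.8% for their longest peak-free stretch, and 85.3% of 658 like genes had a shorter one. The neighbourhood was sparse too, with 31.5 peaks of replicate 1 and 16.5 of replicate 2 per Mb, against medians of 87 and 47 over all genes.

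CLTA encodes a clathrin light chain, which binds the heavy chain and regulates coat assembly (chr9:36190874-36212059, plus strand, 21.2 kb). It had 6 peaks of replicate 1 and 2 of replicate 2, and no peak of either list overlapped the other list. Like genes had medians of 6 and 3 peaks and of 2 shared regions, and 29.9% of 1186 like genes had no shared region either. The start carried a peak of replicate 1 at −202 to 314 (fold 3.31, −log10 q 2.46, higher than 89.3% of that list by q), and the nearest peak of replicate 2 was 17083 bp away. Inside the gene, a replicate 1 peak of fold 3.81 and a replicate 2 peak of fold 2.2 lay 581 bp apart. The lists thus placed peaks near each other in the last part of CLTA without overlap.

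CLTB encodes the other light chain (chr5:176392455-176416569, minus strand, 24.1 kb), and most of its span is also covered by ARL10, a small GTPase gene on the opposite strand. It had 9 peaks of replicate 1 and 3 of replicate 2, beside medians of 8 and 3 in like genes. Its 1 shared region lay in the body at 1721 to 4843 from the start (chr5:176411726-176414848), with fold 3.54 and 2.11 and a −log10 q of 2.33 and 1.94. Both ends had a peak of replicate 1 only, at the start with fold 2.89 and at the far end with fold 3.32. The light chain genes thus shared the pattern of a start peak in replicate 1 without one in replicate 2, which 42.7% of genes with a strand had and which HIP1R also had.

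AP2A1 and AP2A2 encode alternative alpha subunits of AP-2, the large chains that bind membrane phosphoinositides. AP2A1 (chr19:49767001-49807114, plus strand, 40.1 kb) had the most peaks of the 10 genes, 18 of replicate 1 and 11 of replicate 2, with 9 shared regions. Of like genes, 85.7% had fewer peaks of replicate 1 (median 12), 85.8% fewer of replicate 2 (median 6) and 89.3% fewer shared regions (median 4). It lies on chromosome 19 among 196 peaks of replicate 1 and 110 of replicate 2 per Mb. Its start was in the shared region chr19:49765587-49768533, with fold 3.34 and 2.48, which ranked above 91.7% of all shared regions. In replicate 2 this region was made of 2 peaks, with the start between them, at −1414 to −1173 and at 348 to 1532, joined by 1 peak of replicate 1 at −1243 to 1339. Peaks covered 37.3% of the span in replicate 1 and 13.9% in replicate 2, against medians of 20.9% and 7.43% in like genes. The far end, where AP2A1 overlaps FUZ, a gene of planar cell polarity, had a replicate 1 peak of 4714 bp (fold 3.76) and none of replicate 2.

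AP2A2 (chr11:925870-1012240, plus strand, 86.4 kb) differed from AP2A1 in the place of its peaks. It had 6 peaks of replicate 1 and 4 of replicate 2, all of them in the upstream flank and the first 8.2 kb of the gene. From there, 78.2 kb without a peak of either list ran to the far end, 90.5% of the span, where like genes had a median of 28.9% and 91% of 1083 had a shorter stretch. The flank beyond the far end, which reaches into the mucin gene MUC6, had none either. Local density was not low, at 130 and 52.2 peaks per Mb. The shared region at the start was chr11:923813-925417, at −2057 to −453, with fold 3.21 and 2.19. It came within 1 kb of the start only through its replicate 1 peak, since the replicate 2 peak in it ended at −1249. A separate replicate 2 peak at 657 to 910 (fold 2.46) did not overlap replicate 1. A second shared region in the body, at 3083 to 4435, had fold 3.24 and 2.61 and ranked above 88.9% of shared regions.

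AP2B1 encodes the beta subunit, which binds clathrin through its hinge and appendage (chr17:35587322-35726413, plus strand, 139 kb, the longest of the 10). It was the only gene of the 10 without a peak of either replicate at its start. It had 7 peaks of replicate 1 and 3 of replicate 2, beside medians of 10 and 5 in like genes. A stretch of 116 kb without peaks ran through the gene, from 10.1 to 126 kb after the start, or 83.2% of the span against a median of 30.2% in like genes, of which 86.4% had a shorter one. The shared peaks gathered at the far end. The region chr17:35725327-35726835 reached it with fold 2.99 and 2.04 and ranked above 11.1% of shared regions, and a wider one of 6917 bp lay beyond it, partly over the RAS-related gene RASL10B, with fold 3.29 and 2.15.

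AP2M1 encodes the mu subunit, which reads tyrosine-based sorting motifs (chr3:184174855-184184091, plus strand, 9.24 kb, the shortest of the 10). The replicates differed most here in number of peaks, with 10 of replicate 1 and 2 of replicate 2. Of like genes, 94.3% had fewer peaks of replicate 1 (median 4) and 43.5% fewer of replicate 2 (median 2). Replicate 1 covered 54.8% of the span and replicate 2 covered 8.65%, against medians of 14.5% and 2.39% in like genes. Of these, 91.8% had less coverage in replicate 1 and 70.2% less in replicate 2. The strongest replicate 1 peak of the 10 genes lay in its body, at 5330 to 6238 (chr3:184180185-184181093, fold 3.88, −log10 q 3.30, higher than 99.1% of that list by q), and the nearest replicate 2 peak was 3609 bp away. The 1 shared region of the window was outside the gene, at chr3:184186170-184186975 over the start of ABCF3, with fold 3.05 and 2.05.

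AP2S1 encodes the sigma subunit, part of the site for dileucine motifs (chr19:46838167-46850846, minus strand, 12.7 kb). It had 8 peaks of replicate 1, 4 of replicate 2 and 3 shared regions, beside medians of 7, 4 and 3 in like genes. All 4 replicate 2 peaks overlapped replicate 1. The far-end region chr19:46838007-46838554 had fold 3.41 and 2.4, and the start region chr19:46849309-46851418 had 3.24 and 2.08. The first ranked above 91.7% of all shared regions and the second above 37.8%. The start listed in the promoter table lies 532 bases inside the span, and it is that start whose sequence is printed with 136 capitals.

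HIP1R (chr12:122834748-122862961, plus strand, 28.2 kb) was covered far more widely in replicate 1 than in replicate 2. Its 7 peaks of replicate 1 covered 71.3% of the span, against a median of 18.1% in like genes, of which 98.1% had less. Its 6 peaks of replicate 2 covered 8.83%, against 6.24%, with 60.9% of like genes below. The widest peak of the 10 genes, 11373 bp in replicate 1 (fold 3.41), ran over the far end and on into VPS37B, an ESCRT-I gene, and it met 3 peaks of replicate 2 with folds up to 2.04. All 6 peaks of replicate 2 had a fold of 2.13 or less, below the median of 2.27 of that list. At the start, a replicate 1 peak at −46 to 326 (fold 3.31) was 5747 bp from the nearest replicate 2 peak. A second annotated start 709 bases downstream, with a GC content of 80%, was under no peak.

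CMTM6 (chr3:32481312-32502852, minus strand, 21.5 kb) had 3 peaks in each list. Like genes had medians of 6 in replicate 1 and 3 in replicate 2, and 22.6% of them had fewer in replicate 1. Its start was in the shared region chr3:32502107-32503991, with fold 3.19 and 2.29 and a −log10 q of 2.26 and 2.37, ranked above 66.5% of shared regions. As at AP2A1, 2 replicate 2 peaks flanked the start (−1139 to −613 and 221 to 745) and 1 replicate 1 peak (−776 to 531) spanned it. The other shared region lay in the flank past the far end, with fold 3.38 and 1.86, and the body had 1 weak replicate 1 peak of fold 2.64.

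**Figure D3:**
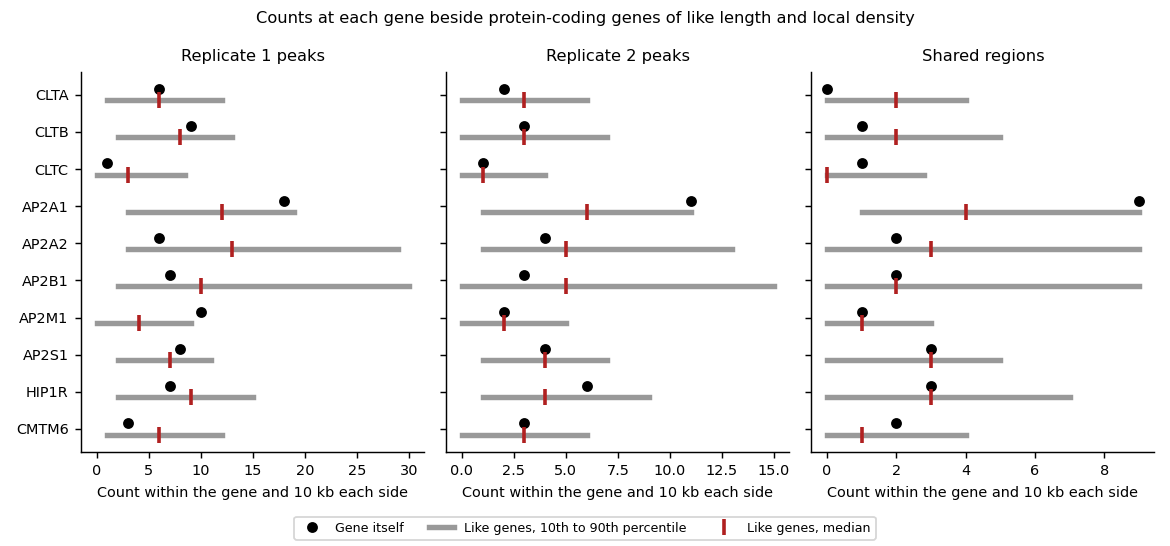
Counts of replicate 1 peaks, replicate 2 peaks and shared regions in each gene's window (points), beside the median (red tick) and the 10th to 90th percentile (grey bar) of protein-coding genes of like length and local density. AP2M1 in replicate 1, with 10, is the only point above its grey bar, and CLTC has 1 peak of each replicate.

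Against like genes, the numbers of peaks were unremarkable for most of the 10. The count exceeded the median of like genes in 4 genes for replicate 1 (CLTB, AP2A1, AP2M1 and AP2S1), in 2 for replicate 2 (AP2A1 and HIP1R) and in 3 for shared regions (CLTC, AP2A1 and CMTM6). CLTC exceeded it with 1 shared region against a median of 0. AP2A1 was the only gene above the median in all 3 measures. When like genes were chosen by length alone, these counts were 7, 6 and 6. The median window held 7 peaks of replicate 1, 3 of replicate 2 and 2 shared regions, against 4, 2 and 1 over all protein-coding genes, whose median length was 24.2 kb beside 26.2 kb here.

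**Figure D4:**
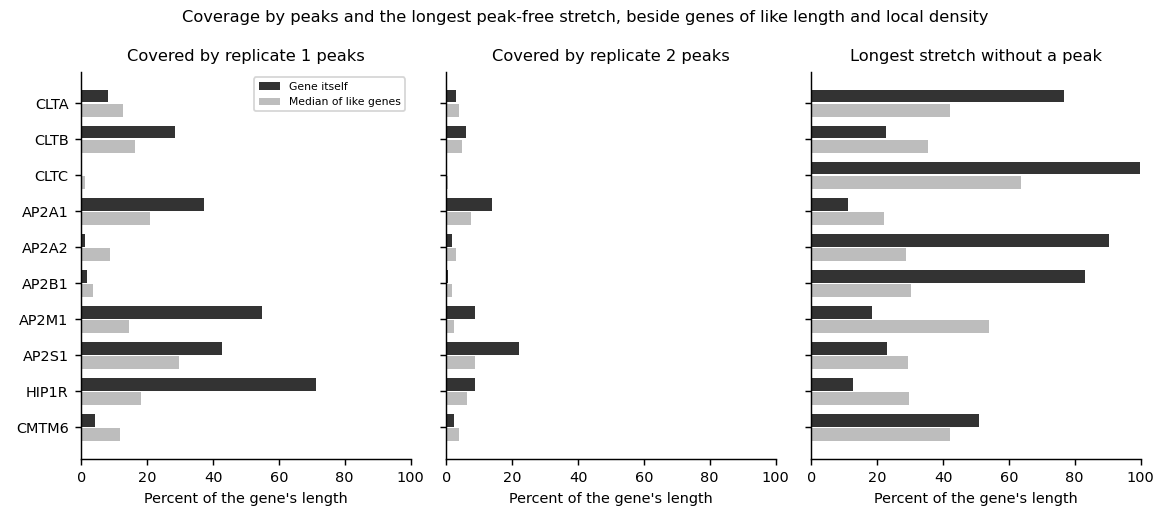
Percent of each gene's span covered by peaks of replicate 1 and replicate 2, and its longest stretch without a peak of either list (dark bars), beside the median of like genes (light bars). HIP1R reaches 71.3% coverage in replicate 1 and 8.83% in replicate 2, and CLTC, AP2A2 and AP2B1 are peak-free over 99.7%, 90.5% and 83.2% of their length in 1 stretch.

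Coverage was lowest in the long genes. The 3 longest genes, AP2B1, AP2A2 and CLTC, were covered over less than 2% of their span in each list, with 1.86% and 0.477% at AP2B1, 1.18% and 1.77% at AP2A2, and 0% and 0.287% at CLTC. Their like genes had medians of 3.38% and 1.85% for AP2B1, 8.76% and 2.95% for AP2A2, and 1.15% and 0.399% for CLTC. Over all protein-coding genes the medians were 4.59% and 1.19%. Of the like genes of AP2A2, 13.2% had less coverage in replicate 1 and 39.5% less in replicate 2. For AP2B1 these shares were 36.8% and 26.1%. For CLTC, 46.4% had less in replicate 2, and none could have less than its 0% in replicate 1. The widest coverage in replicate 1 was at HIP1R, AP2M1 (54.8%) and AP2S1 (42.7%), and in replicate 2 at AP2S1 (22.1%) and AP2A1 (13.9%). Both genes on chromosome 19, AP2S1 and AP2A1, had the densest surroundings, at 191 and 196 peaks of replicate 1 per Mb.

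Overlap between the lists, which may not be independent, was uneven. Of 75 peaks of replicate 1, 26 overlapped replicate 2 (34.7%, Wilson 95% interval 24.9% to 45.9%), against 30.2% of the peaks in windows of all protein-coding genes. Of 39 peaks of replicate 2, 29 overlapped replicate 1 (74.4%, 58.9% to 85.4%), against 56.8%. The intervals cover counting error only, and peaks of a gene share a neighbourhood. AP2A1 gave 9 of the 26 and 10 of the 29; without it the shares were 29.8% (17 of 57, 19.5% to 42.7%) and 67.9% (19 of 28, 49.3% to 82.1%). By place, 5 of 9 start peaks of replicate 1 overlapped, as did 3 of 7 at far ends, 12 of 32 in bodies and 6 of 27 in flanks. Replicate 2 had much the same share at each place, with 5 of 7 at starts, 3 of 4 at far ends, 12 of 16 in bodies and 9 of 12 in flanks. No shares by place over all genes are given beside these small counts.

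**Figure D5:**
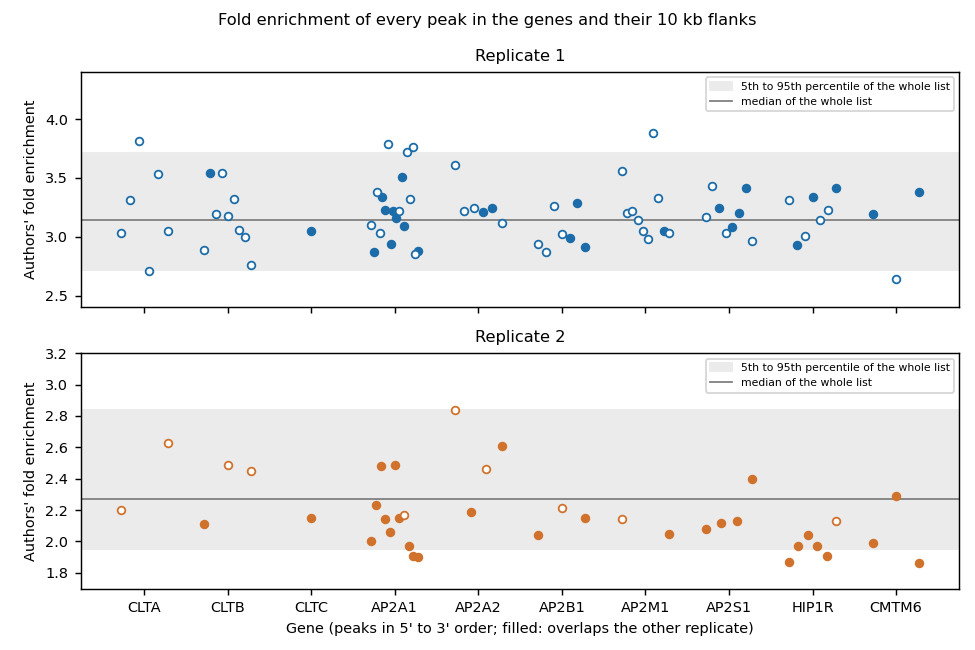
The authors' fold enrichment of every peak in the 10 windows, in order along each gene, with filled points for peaks that overlap the other replicate and open points for those that do not. The line and the band give the median (3.14 in replicate 1, 2.27 in replicate 2) and the 5th to 95th percentile of each whole list. Most points lie within the bands.

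Median enrichment at the 10 genes was near that of the whole list in replicate 1 and lower in replicate 2. These peaks are part of the lists. The fold had a median of 3.19 in replicate 1 (2.64 to 3.88), against 3.14 over that list, and of 2.14 in replicate 2 (1.86 to 2.84), against 2.27. A replicate 2 peak of fold 2.14, at AP2M1, stood above 27.7% of its list. The −log10 q had a median of 1.98 in replicate 1, with a maximum of 3.30, and of 1.7 in replicate 2, with a maximum of 2.46. The medians of the whole lists were 1.91 and 1.8. The lowest value in each whole list was 1.3. The highest replicate 2 fold, 2.84, belonged to a peak in the upstream flank of AP2A2 (−8938 to −8147), 180 bp from a replicate 1 peak of fold 3.61.

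Other genes of the route were counted as lists, beside 32.9% of all protein-coding genes with a shared region at a gene end. No list, here or in the next paragraph, was set beside genes of like length and local density. For the 10 genes, that share averaged 42% among like genes. Accessory proteins of the coat had 10 of 27, led by BMP2K, a kinase related to the AP-2 kinase AAK1 (fold 3.39 and 3.31), ITSN2, an endocytic scaffold (3.51 and 2.51), and STON2, a stonin adaptor (3.54 and 2.17). Genes of scission and uncoating had 6 of 20, led by CTTN, cortactin (3.41 and 2.30), DNM2, the ubiquitous dynamin (3.24 and 2.34), and PACSIN3 (3.86 and 2.13). Both shares lay near that of all genes. Subunits of the other adaptor complexes had 10 of 23, led by AP5Z1 (3.27 and 2.51), AP3M2 (3.24 and 2.56) and AP3M1 (3.40 and 2.27).

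Relatives of CMTM6 had a shared region at a gene end in 6 of 8, led by CMTM2 (fold 3.38 and 2.47), CMTM3 (3.30 and 2.47) and CMTM7 (3.30 and 2.12). CKLF, CMTM1, CMTM2, CMTM3 and CMTM4 form a gene cluster on chromosome 16, so their windows are not separate places. CMTM7 (63.7 kb) and CMTM8 (132 kb) are on chromosome 3, as is CMTM6 (21.5 kb). Both of these longer genes had 21 peaks of replicate 1, against 3 at CMTM6. The far-end region of CMTM7 (chr3:32453582-32456030) lies near the CMTM6 span (chr3:32481312-32502852), so CMTM6 and CMTM7 share a neighbourhood. Genes of PD-L1 turnover and transport had 10 of 19, among them B3GNT3, a glycosyltransferase (fold 3.60 and 2.35), and the ubiquitin ligase STUB1 (3.38 and 2.30). CD274, the gene of PD-L1, was in that list and had no peak of either replicate in its window. ZDHHC9 of the same list had none either. Over all protein-coding genes, 83.2% had a peak of replicate 1 in the window and 74.5% a peak of replicate 2. The share with a peak of neither list was not counted, and CD274 was not set beside like genes. SH3GL2, of the scission and uncoating list, also had no peak, so such an absence was seen at genes other than CD274.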

How the data were processed

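The submitters' processing notes name Bowtie2 2.2.9, MACS2 2.1.1 and the build hg38 without saying what each did. No source used here gives the peak caller's settings. Per the labels, each replicate has 1 list of broad peaks. Each deposited list gives per peak a score, a fold enrichment (a ratio), a −log10 p-value and a −log10 q-value, which are the authors' values and were used only to describe and rank peaks. All names in the second list include "Merge", which no label explains, so whether it was called on replicate 2 alone is unknown and overlap of the lists may not be overlap of independent replicates. No input file was analysed here.

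Peaks, shared regions and gene windows were joined with Python 3.11.15, pandas 2.3.3, numpy 2.4.6 and scipy 1.17.1, and the functions were tested on simulated data. RefSeq (GRCh38.p14) gave gene spans, and strand and sequence from its promoter table, where 15812 of 19970 protein-coding genes were found. All 10 genes are named; regions were chosen as the best-ranked shared region at a gene end, or else in the window. The genes and lists were chosen with earlier results of these data known. Peak-free stretches and coverage were added after values were seen. Alternatives are in the closing section. One gene of the lists is not reported here by name.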

Additional observations from a re-analysis of the deposited data

How the results depend on the processing

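No paired analysis was possible because the inputs have no peak lists here and no test was fitted. Of 78 values under alternatives, 49 stayed within 1.5 times the value above or within its interval. Most of the rest came from thresholds on the peaks. Keeping only values of 2 or more for −log10 q, there were 36 peaks of replicate 1 and 12 of replicate 2, overlapping in 13.9% and 41.7% (10.9% and 27.8% in windows of all genes), and shared regions remained in 4 windows, at 4 gene ends and in 2 bodies (21.8%, 7.55% and 13.9% of all genes). With the 50% of each list that had the higher fold, there were 44 and 10 peaks, overlapping in 11.4% and 50% (11.2% and 22.7%), with a replicate 2 peak in 6 windows (58.8%) and shared regions in 4 windows, at 3 gene ends and in 2 bodies (27%, 7.66% and 16.9%). A reciprocal overlap of 50% left shared regions in 5 windows, at 1 gene end and in 2 bodies (36%, 9.9% and 22.4%), with overlaps of 8% and 15.4% (9.49% and 17.4%). A flank of 0 kb gave 45 and 24 peaks and one of 50 kb gave 167 and 98. Gene-end windows of 5 kb left 3 bodies with a shared region (29.2%). With like genes within 2 times, 1 gene exceeded the median for shared regions, and by length alone 7, 6 and 6 did for replicate 1, replicate 2 and shared regions. Each replicate alone gave 10 windows, 8 to 10 gene ends and 8 to 9 bodies with a peak. Equal numbers of peaks (7 gene ends), merging within 1 kb (7) and gene-end windows of 500 bp (7) left the count at gene ends as it was. Across the 7 alternatives that touch gene ends, other than single replicates, CLTC, AP2A1, AP2S1 and CMTM6 kept a shared region there in 6 and AP2A2, AP2B1 and HIP1R in 4. Depth is unknown, so an absent peak may be a shallow one.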

Other observations

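In replicate 2, peaks that overlapped replicate 1 had a lower fold than those that did not. At the 10 genes the median fold was 2.08 for 29 overlapping peaks and 2.33 for 10 others, and over the whole list it was 2.18 for 48672 and 2.38 for 44919. In replicate 1 the medians were 3.21 for 26 overlapping peaks and 3.18 for 49 others at the 10 genes, and 3.16 and 3.13 over the list. Overlapping peaks of replicate 1 were wider, with a median of 1306 bp against 755 bp at the 10 genes and of 896 bp against 528 bp over the list. In replicate 2, overlapping peaks had a median width of 644 bp against 734 bp for the others at the 10 genes, and of 745 bp against 526 bp over the list, the opposite order. The part of peak width in these differences was not tested.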
